A study of Homo sapiens with 25 samples.

Results

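Definitive endoderm was described here by the combination of histone marks that each gene end and each distal region carried. Of the 25 samples of the series, 21 of them with a peak list, 6 were used: 2 chromatin immunoprecipitation (ChIP-seq) libraries each for H3K4me2, H3K27ac and H3K27me3. All came from definitive endoderm (hDE) derived from H1, a long-established line of human embryonic stem cells, as a step of a directed differentiation toward pharyngeal foregut endoderm; no genotype change, drug or time in days is given for these groups. As 1 line is behind every library, the replicates are not separate donors. A base pair was kept for a mark when the merged peaks of both of its libraries covered it, and a mark was counted at a gene end when at least 1 kept bp lay within 1 kb of it. The labels do not say whether the replicates were separate cultures, so agreement between them may be technical.

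Histone marks label the working state of DNA. H3K4me2 lies around active and poised promoters and enhancers, H3K27ac at promoters and enhancers in use, and H3K27me3, written by the Polycomb complex PRC2, over repressed developmental genes. Acetylation and methylation compete for the same lysine, so 1 histone tail cannot hold both. A promoter with an H3K4 mark and H3K27me3 is called bivalent, a state known from genes of lineages that a stem cell has not entered. Definitive endoderm is the germ layer that gives rise to the lining of the gut, lungs, liver, pancreas and pharynx.

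The peak lists held 87338 and 104979 peaks for H3K4me2, 101149 and 111042 for H3K27ac, and 28139 and 65886 for H3K27me3. The kept part was 21.5 Mb for H3K4me2, 30.0 Mb for H3K27ac and 11.2 Mb for H3K27me3. The Jaccard index (shared bp over the union) was 0.427, 0.499 and 0.440 between the 2 libraries of these marks. Between libraries of different marks it was 0.192 to 0.206 for H3K4me2 with H3K27ac, 0.0516 to 0.0638 for H3K4me2 with H3K27me3 and 0.000492 to 0.00151 for H3K27ac with H3K27me3. The grouping by mark gave the highest mean of the 15 ways to pair 6 libraries (0.455; mean between marks 0.0854), an exact permutation p of 0.0667, which is the smallest that this design allows. The number of reads behind each list is unknown, and the shorter H3K27me3 list of replicate 1 limits what could be kept for that mark.

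The labelled cell type was checked against marker genes. All 11 definitive endoderm markers (SOX17, FOXA2, GATA4, GATA6, CXCR4, EOMES, GSC, CER1, HHEX, LHX1 and MIXL1) had kept H3K27ac at an end. Of 6 stem cell markers, NANOG and L1TD1 had it, and POU5F1, SOX2, DPPA4 and ZFP42 did not. H3K27me3 was kept at an end of 1 of the 11 endoderm markers and 1 of the 6 stem cell markers. Over all protein-coding genes, 53.1% had H3K27ac at an end and 12.8% had H3K27me3. H3K27ac was kept at 2 of 5 mesoderm markers and 1 of 4 neurectoderm markers, and H3K27me3 at 3 of these 5 and all 4. None of 6 markers of extraembryonic endoderm and trophoblast had H3K27ac, and 5 of these 6 had H3K27me3. In a population of cells, a weak mark and a mark in few cells cannot be told apart.

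H3K27ac and H3K27me3 hardly ever covered the same base pair. They shared 5.20 kb in the genome, 0.0462% of the kept H3K27me3 and 0.0173% of the kept H3K27ac. H3K4me2 shared 7740 kb with H3K27ac, 36.0% of its own length, and 1809 kb with H3K27me3, 16.1% of the kept H3K27me3. The shared 5.20 kb lay in 44 intervals with a median of 114.5 bp. With fewer libraries the shared length can only rise, as fewer libraries then have to cover a bp. It was 30685 bp without H3K27ac replicate 1 and 17320 bp without H3K27ac replicate 2. Without H3K27me3 replicate 1 it was 26338 bp, and without H3K27me3 replicate 2 it was 8283 bp. All of these are small beside the 7740 kb that H3K4me2 shared with H3K27ac. H3K27ac was rarely near H3K27me3 either: 2.30% of the 23263 kept H3K27me3 intervals had kept H3K27ac within 1 kb, and 45.8% had kept H3K4me2 within that distance. H3K27me3 also formed the longer stretches, with 436 kept intervals of 3 kb or more that held 17.7% of its length, against 2.46% for H3K27ac and 0.365% for H3K4me2.

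Transcription starts were taken as the outermost annotated gene ends, which equal the RefSeq promoter start for 83.8%. Marks at starts further inside a gene were not counted. Among the 15842 protein-coding genes whose strand was known, 50.7% of transcription starts carried H3K4me2 with H3K27ac, the pair found at promoters in use. H3K4me2 with H3K27me3, the bivalent pair, was at 8.32% of starts. H3K4me2 alone was at 7.53%, H3K27ac alone at 2.10%, H3K27me3 alone at 1.58% and all 3 marks at 0.934%. No kept mark was found at 28.8%. At the far ends of the same genes, 87.7% had no kept mark, 5.11% had H3K4me2 with H3K27ac and 1.22% had the bivalent pair. The shares of H3K27ac alone (2.10% at both) and of H3K27me3 alone (1.58% and 1.70%) were close at starts and far ends, whereas the classes with H3K4me2 lay mainly at starts. For gene ends, bivalent here means that both marks lay within 1 kb of the same end. Whether H3K4me2 and H3K27me3 shared bp at these ends was not counted. Over the genome, 22.8% of kept H3K27me3 intervals touched kept H3K4me2.

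**Figure D1:**
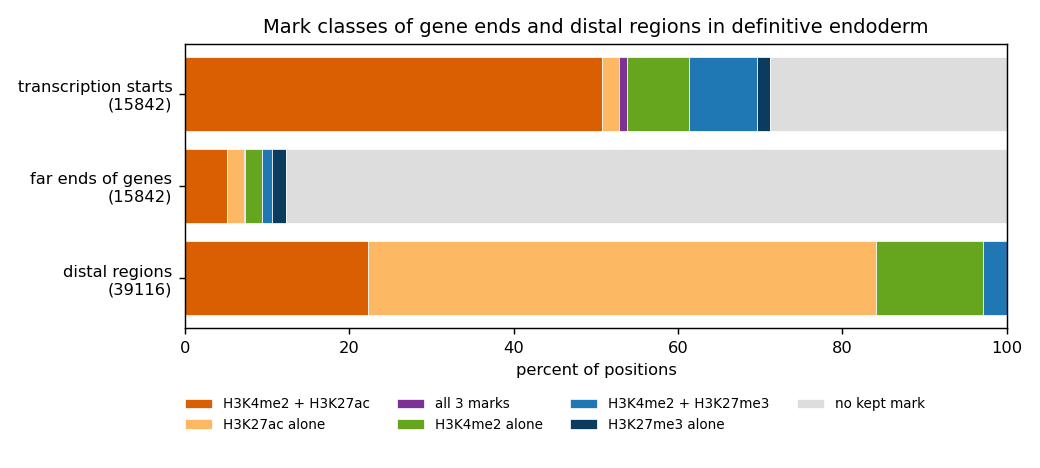
Share of transcription starts, far gene ends and distal regions (percent of each) in each mark class. H3K4me2 with H3K27ac covered 50.7% of starts and 22.2% of distal regions, and H3K27ac alone was the commonest distal class at 61.9%; the class with H3K27ac and H3K27me3 but no H3K4me2, under 0.01% of far ends and absent from starts, is not drawn.

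The marks were unevenly combined. Over all 40074 protein-coding gene ends, 92.9% of the 11641 ends with H3K27ac also had H3K4me2, as did 75.9% of the 3004 ends with H3K27me3, against 36.9% of all ends. H3K27ac was at 7.72% of the ends with H3K27me3 and at 29.0% of all ends. At starts, where marks are common, the contrast was wider: 8.62% of the 1717 starts with H3K27me3 had H3K27ac, against 53.7% of all starts. These shares describe 1 pooled picture of the 2 libraries of each mark and have no error of their own.

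Each gene was then given the class of its end with more marks. H3K4me2 with H3K27ac was the class of 9837 of 20037 protein-coding genes (49.1%), and the bivalent pair that of 1854 (9.25%). H3K4me2 alone was the class of 1495 (7.46%), H3K27ac alone of 480 (2.4%), H3K27me3 alone of 378 (1.89%), all 3 marks of 226 (1.13%), H3K27ac with H3K27me3 of 2 (0.00998%) and no mark of 5765 (28.8%). At either end, 53.1% of genes had H3K27ac, 12.8% had H3K27me3 and 67% had H3K4me2. These are the shares against which the lists below are read. The lists were chosen with earlier results of these data known, so their counts are descriptions.

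**Figure D2:**
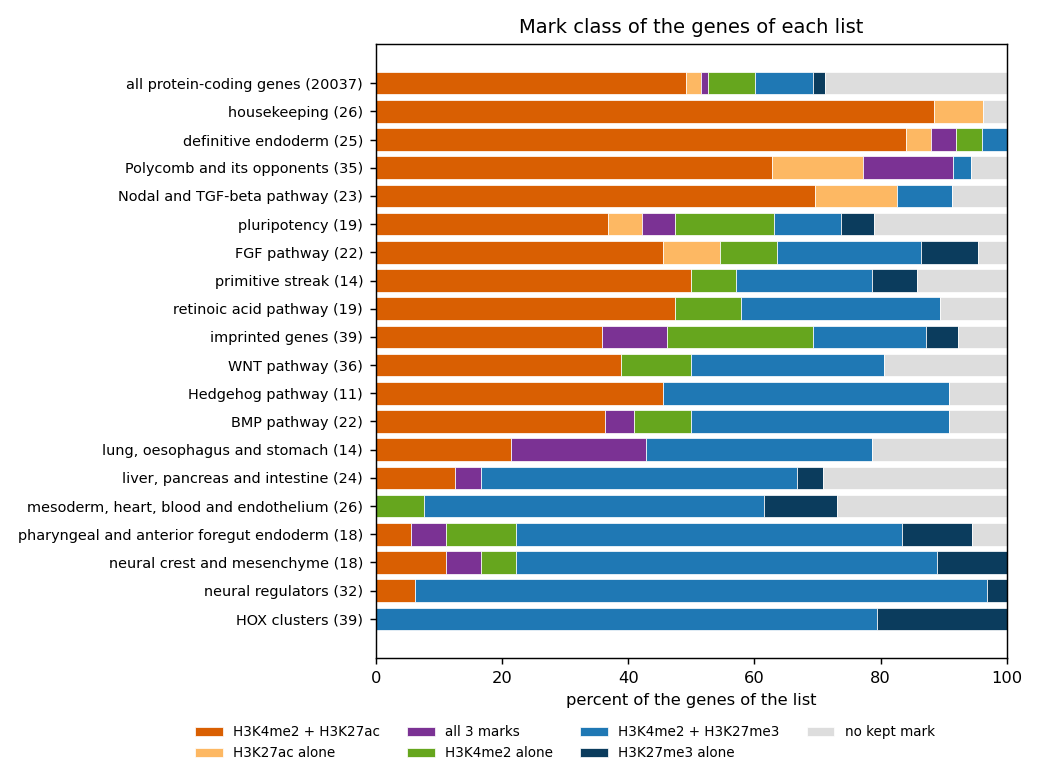
Mark class of the genes in 19 lists and of all protein-coding genes, as percent of each list with the number of genes in brackets. Definitive endoderm and housekeeping genes were mostly H3K4me2 with H3K27ac (21 of 25 and 23 of 26), and neural regulators and HOX genes mostly H3K4me2 with H3K27me3 (29 of 32 and 31 of 39).

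Definitive endoderm genes stood almost wholly in the acetylated classes. Of 25, 21 had H3K4me2 with H3K27ac (background 49.1%) and GATA6 had H3K27ac alone. The values below are the authors' fold enrichment of the strongest peak within 1 kb of the end, in replicate 1 and then replicate 2. At the start of CER1, a secreted inhibitor of Nodal, BMP and WNT signals (chr9:14717326-14722733, hg38), H3K27ac was 19.1 and 19.8-fold, H3K4me2 5.05 and 3.21-fold, and no H3K27me3 peak was listed. GSC, a homeobox repressor of the organizer (chr14:94768223-94770113), had H3K27ac at 16.3 and 22.4-fold and H3K4me2 at 8.92 and 8.34-fold. These genes had the highest H3K27ac of the list in the replicate concerned, CER1 in replicate 1 and GSC in replicate 2.

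The endoderm regulators varied in how much H3K27ac they held. SOX17, a transcription factor needed to form endoderm, had 13.9 and 18.4-fold. EOMES, the T-box factor that starts the endoderm program, had 10.8 and 8.27-fold at its end, within a kept interval of 6908 bp that was the third widest of the mark at a gene end. FOXA1, a pioneer factor, had 4.29 and 8.29-fold over 411 bp of its window, with H3K4me2 at 7.70 and 5.66-fold. GATA6, a zinc-finger factor of endoderm, had 17.5 and 18.2-fold H3K27ac over 1756 bp of the window, and H3K4me2 in replicate 2 alone (4.27-fold).

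GATA3 and DKK1 of that list lacked kept H3K27ac. GATA3, a factor of trophoblast and other lineages, was bivalent at its start (chr10:8045333-8075198), with H3K4me2 at 4.68 and 8.29-fold, H3K27me3 at 9.39 and 6.31-fold and no H3K27ac peak. DKK1, a secreted WNT inhibitor, had 1560 bp of H3K4me2 (8.64 and 6.70-fold), an H3K27ac peak in replicate 2 alone (3.45-fold) and no H3K27me3 peak. Thus of the 3 GATA factors in the list, GATA4 and GATA6 were acetylated and GATA3 carried H3K27me3.

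**Figure D3:**
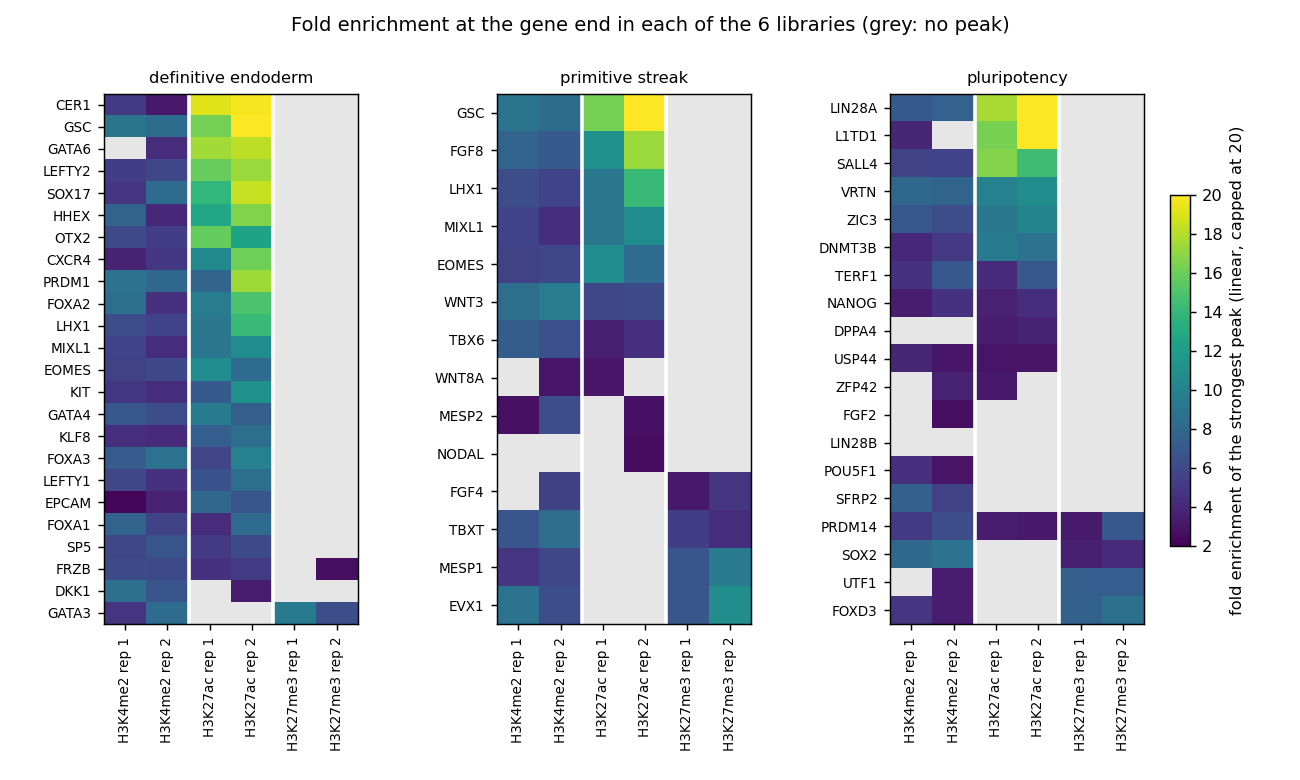
Authors' fold enrichment (linear color scale, capped at 20) of the strongest peak within 1 kb of the gene end, for each gene (rows) and library (columns; grey where no peak is listed), for reported genes of 3 lists. H3K27ac fills nearly the whole endoderm panel, H3K27me3 appears at GATA3 in both libraries and at FRZB in 1, and the lower rows of the streak and pluripotency panels hold H3K27me3. Only the end that gave each gene its class is drawn. The other end of FOXA2, which had H3K27me3 in both libraries, is therefore not shown.

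The promoters of CER1 and EOMES are shown because both were strongly acetylated but differ in composition; those of PAX6, a bivalent neural gene, and EZH1, a gene with all 3 marks, are shown for comparison. Each runs from 250 bases before to 50 after the RefSeq start (GRCh38.p14, minus strand for all 4), 5′ to 3′, with each CG dinucleotide in capitals. CER1 is at chr9:14722684-14722983, EOMES at chr3:27722274-27722573, PAX6 at chr11:31817912-31818211 and EZH1 at chr17:42744991-42745290.
CER1: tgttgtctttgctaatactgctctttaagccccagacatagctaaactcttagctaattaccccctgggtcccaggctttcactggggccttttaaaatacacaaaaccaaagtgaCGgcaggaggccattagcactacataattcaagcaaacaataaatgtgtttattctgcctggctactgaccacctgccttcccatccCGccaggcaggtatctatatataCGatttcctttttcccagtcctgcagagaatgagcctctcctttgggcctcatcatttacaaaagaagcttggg
EOMES: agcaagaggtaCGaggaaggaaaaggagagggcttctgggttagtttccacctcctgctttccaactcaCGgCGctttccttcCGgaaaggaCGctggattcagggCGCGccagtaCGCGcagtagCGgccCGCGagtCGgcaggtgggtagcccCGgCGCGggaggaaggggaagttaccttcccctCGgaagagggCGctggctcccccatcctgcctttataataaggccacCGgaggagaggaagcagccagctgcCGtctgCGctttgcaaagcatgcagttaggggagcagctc
PAX6: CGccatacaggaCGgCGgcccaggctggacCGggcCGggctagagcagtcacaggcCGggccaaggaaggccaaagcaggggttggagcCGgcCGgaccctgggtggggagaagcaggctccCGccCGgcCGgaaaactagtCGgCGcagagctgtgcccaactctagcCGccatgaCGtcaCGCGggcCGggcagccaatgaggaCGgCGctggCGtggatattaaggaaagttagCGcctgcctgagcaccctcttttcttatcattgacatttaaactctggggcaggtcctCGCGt
EZH1: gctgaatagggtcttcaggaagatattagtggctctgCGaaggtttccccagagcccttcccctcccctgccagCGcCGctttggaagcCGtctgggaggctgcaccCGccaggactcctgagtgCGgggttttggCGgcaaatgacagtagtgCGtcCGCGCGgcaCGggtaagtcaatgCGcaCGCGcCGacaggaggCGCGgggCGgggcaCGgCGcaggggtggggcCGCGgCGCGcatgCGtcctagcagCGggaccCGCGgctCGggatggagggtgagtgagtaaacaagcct
CER1 holds 3 CG dinucleotides, EOMES 21, PAX6 24 and EZH1 30. The ratio of observed to expected CG (CpG ratio, 1 where CG is as frequent as its C and G content predicts) was 0.203, 0.744, 0.770 and 0.910 in the same order. Of the 4, CER1 had the strongest H3K27ac (19.1 and 19.8-fold) and the fewest CG.

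Over all 15860 protein-coding promoters with a sequence, classed by the marks within 1 kb of the RefSeq start, the median CpG ratio was 0.763. It was 0.865 (interquartile range 0.749 to 0.966) for H3K4me2 with H3K27ac, 0.802 (0.679 to 0.914) for the bivalent class, 0.859 (0.725 to 0.948) for all 3 marks and 0.242 (0.133 to 0.404) for starts without a kept mark. GC content separated the marked classes differently: its median was 65.7% for H3K4me2 with H3K27ac, 69.7% for the bivalent class and 70.0% for all 3 marks. For the 234 starts with H3K27me3 alone the median CpG ratio was 0.700, and it fell to 0.259 when the replicate 2 lists alone were used. Genes that share a promoter region are not independent in these counts.

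Short sequence motifs were counted on both strands of the same 300-base promoters. CGGAAG, the core bound by ETS factors, was in 38.5% of the 8157 promoters with H3K4me2 and H3K27ac, in 13.9% of the 1350 bivalent promoters, in 14.9% of the 154 with all 3 marks and in 25.6% of all promoters. GGGCGG, bound by SP1 and KLF factors, was in 73.2%, 76.4%, 80.5% and 58.5% of the same groups. Both motifs contain CG, and their counts were not compared at matched CG content. CCAAT was in 38.1% of acetylated, 29.2% of bivalent and 36.4% of all promoters, and TATAAA in 4.87%, 7.11% and 9.62%. The core letters bound by GATA factors, AGATAA, were in 4.22%, 4.67% and 7.57%, and those of FOXA factors, TGTTTAC, in 2.21%, 2.00% and 2.62%. TGACGTCA (CRE) was in 3.70%, 2.37% and 2.59%, and AGGTGTGA (T-box) in 0.613%, 0.667% and 0.914%. A match is a description of the letters and not of a bound site.

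Primitive streak genes were split. Of 14, 7 had H3K4me2 with H3K27ac (background 49.1%): EOMES, FGF8, GSC, LHX1, MIXL1, TBX6 and WNT3. The mesoderm genes TBXT, MESP1 and EVX1 were bivalent (3 of 14; background 9.25%). TBXT, the Brachyury T-box factor (chr6:166157656-166168655), had H3K4me2 at 6.81 and 8.43-fold and H3K27me3 at 5.28 and 4.34-fold, with no H3K27ac peak. EVX1, a homeobox gene of the posterior streak, had H3K27me3 at 6.79 and 10.8-fold over 1908 bp of its window. FGF4 had H3K27me3 alone, and neither NODAL nor WNT8A had a kept mark; NODAL, the ligand that induces endoderm, had an H3K27ac peak of 2.61-fold in replicate 2 alone. In the 14 genes, H3K27ac and H3K27me3 were never kept at the same end. With a background of 1.14%, this absence does not set the list apart.

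Pluripotency genes were spread over 7 classes, with 9 of 19 holding H3K27ac at an end (background 53.1%) and 4 holding H3K27me3 (background 12.8%). LIN28A, an RNA-binding protein of stem cells, kept H3K27ac at 17.7 and 26.5-fold, the highest of all listed genes in replicate 2. L1TD1 had 16.3-fold in replicate 1 and more in replicate 2, and SALL4 16.6 and 14.4-fold. NANOG, a core pluripotency factor, had 3.62 and 4.33-fold, and POU5F1 had no H3K27ac peak at its end and 81 bp of kept H3K4me2 (4.46 and 2.92-fold). SOX2, which also marks neural and foregut cells, was bivalent at its far end (H3K27me3 3.55 and 4.23-fold over 147 bp) and had H3K4me2 without kept H3K27me3 at its start. FOXD3 was bivalent (H3K27me3 7.56 and 8.64-fold) and UTF1 had H3K27me3 alone (7.45 and 7.34-fold).

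Regulators of other germ layers were mostly bivalent. Of 32 neural regulators, 29 had H3K4me2 with H3K27me3 (background 9.25%), and NKX6-2 had H3K27me3 alone; with lists of equal length, 19 of the 32 were bivalent. PAX6, a homeobox factor of eye and brain, had H3K27me3 across all 2001 bp of its start window (7.20 and 10.2-fold) with H3K4me2 at 6.08 and 3.40-fold. NEUROG2, a factor that drives neuron formation, had H3K27me3 at 9.50 and 9.69-fold. SOX11, a factor of neuron formation, had H3K4me2 with H3K27ac, the latter at 7.67 and 8.50-fold. Among 26 genes of mesoderm, heart, blood and endothelium, 14 were bivalent, 3 had H3K27me3 alone, 7 had no mark and none had H3K4me2 with H3K27ac as its class, although 1 had kept H3K27ac at an end. Neural crest and mesenchyme genes followed the same order, with 12 of 18 bivalent and 2 of 18 (SOX10 and EDNRA) in the acetylated pair.

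All 39 HOX genes, which set position along the body axis, had H3K27me3 and none had kept H3K27ac. H3K4me2 accompanied it at 31, and HOXA3, HOXA6, HOXA9, HOXB1, HOXB3, HOXC8, HOXC11 and HOXC12 had H3K27me3 alone. The count of 31 was 20 with lists of equal length and 15 at transcription starts only, a setting that leaves out genes of unknown strand. HOXA3 (chr7:27107010-27152583) had H3K27me3 at 11.8 and 11.7-fold across its whole start window, with H3K4me2 in replicate 1 alone (3.65-fold). HOXD13 (chr2:176087487-176095944) had lower H3K27me3, 3.72 and 5.41-fold, and H3K27ac peaks of 2.73 and 2.71-fold in the 2 libraries that shared no bp. The widest kept H3K27me3 at any gene end, 14576 bp, lay over HOXC11 and HOXC12 (chr12:53959481-53974056). HOX genes stood at 4 of the 10 widest such intervals, beside PRDM13 (11997 bp), LHX5, TBX5, POU4F3, DLX6 and OLIG3.

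The wide H3K27ac intervals lay at other genes. The widest, 8752 bp, reached within 1 kb of an end of DMTN and of FGF17, a ligand of the FGF8 family. The widest kept H3K4me2 (4249 bp) lay at the same place. LRIG3 (7201 bp), EOMES (6908 bp), OTX2 (6452 and 5584 bp), CYP26A1 (6246 bp) and GSC (5933 bp) were also among the 10 widest. OTX2, the head homeobox factor, had 15.8 and 12.4-fold H3K27ac that filled its start window. CYP26A1, which breaks down retinoic acid, had 18.5 and 14.4-fold. No gene was at both a 10-widest H3K27ac interval and a 10-widest H3K27me3 interval. Over all protein-coding genes only 1.14% had both marks at the same end, so this absence says little about these genes.

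Genes for organs that form later from endoderm were mostly held with H3K27me3. In the list for pharynx and anterior foregut, 11 of 18 were bivalent (background 9.25%), among them PAX1, PAX9, NKX2-1 and FOXE1. PAX9, needed for pharyngeal pouches and thymus (chr14:36657568-36679362), had H3K27me3 at 8.24 and 9.58-fold and H3K4me2 at 7.47 and 5.63-fold. TBX1, the T-box factor of the pharynx (chr22:19756703-19783593), had H3K27me3 at 8.85 and 8.97-fold and H3K4me2 in replicate 1 alone (2.38-fold), so it counted as H3K27me3 alone. EYA1 and ISL1 had H3K4me2 alone; at ISL1 both H3K27me3 libraries had a peak in the window (4.81 and 2.99-fold) but shared no bp.

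In the list for liver, pancreas and intestine, 12 of 24 were bivalent (background 9.25%), including PDX1, PTF1A, NEUROG3, ONECUT1, PROX1 and CDX2. PDX1, the pancreas homeobox factor, had H3K27me3 at 7.43 and 9.94-fold over 1910 bp. No kept mark was found at 7 of 24, among them AFP, ALB, INS and TTR, which encode secreted proteins of differentiated cells, and HNF4A and KLF5. APOA1, GLIS3 and VIL1 had H3K4me2 with H3K27ac. In the lung, oesophagus and stomach list, 3 of 14 had all 3 marks (FOXP2, IRX2 and SFTPC; background 1.13%). Another 3 (ETV5, FOXP1 and ID2) had H3K4me2 with H3K27ac, 5 were bivalent and 3 had no mark. FOXP2, IRX2 and SFTPC all lost the pair of H3K27 marks in a window of 500 bp or with an overlap of 200 bp. With −log10 p of at least 5, only SFTPC of these kept it.

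Of 23 Nodal and TGF-beta genes, 16 (69.6%, background 49.1%) had H3K4me2 with H3K27ac. Another 3 (GDF3, SMAD7 and TGIF1) had H3K27ac alone. The 16 included the receptors ACVR1B, ACVR2A and ACVR2B and the mediators SMAD2, SMAD3 and SMAD4. The cofactor FOXH1 and the inhibitors LEFTY1, LEFTY2 and CER1 were also among the 16. The receptor ACVR1C and the ligand subunit INHBA were bivalent. Among 36 WNT genes, 14 were in the acetylated pair (38.9%, below the background of 49.1%) and 11 bivalent (30.6%, background 9.25%). Of those 11, 9 were ligands (WNT1, WNT2, WNT3A, WNT6, WNT7A, WNT7B, WNT10A, WNT10B and WNT11). WNT3 was the 1 ligand in the acetylated pair, beside receptors FZD5, FZD7, FZD8 and LRP6 and the feedback genes AXIN2, RNF43 and ZNRF3.

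Of 22 BMP genes, 8 were in the acetylated pair (36.4%, below the background of 49.1%) and 9 bivalent (40.9%, background 9.25%). The receptors BMPR1A and BMPR2, the mediators SMAD1 and SMAD5, the inhibitory SMAD6 and the target genes ID2 and ID3 were in the acetylated pair, with BMP2 (H3K27ac 8.15 and 12.7-fold). The ligands BMP4, BMP6 and GDF6, the receptor BMPR1B, the extracellular inhibitors CHRD, NOG and GREM1 and the target genes MSX1 and MSX2 were bivalent. In the Hedgehog list of 11, 5 were bivalent (45.5%): the ligands SHH, DHH and IHH, the receptor PTCH1 and the inhibitor HHIP. Another 5 were in the acetylated pair (45.5%, near the background of 49.1%), among them SMO, SUFU, GLI1 and GLI2. GLI3 had no kept mark. Of 22 FGF genes, 10 were in the acetylated pair (45.5%, near the background of 49.1%), among them FGF8, FGF17, FGFR1, FGFR2, DUSP6 and SPRY4. FGF5, FGF9, FGF18, FGF19 and FGFR3 were bivalent (22.7%, background 9.25%). In the retinoic acid list, the synthetic enzyme ALDH1A2 was bivalent (H3K27me3 7.45 and 8.30-fold) and the degrading enzyme CYP26A1 acetylated, whereas its relatives CYP26B1 and CYP26C1 were bivalent.

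Housekeeping genes gave the reference for promoters in use: 23 of 26 had H3K4me2 with H3K27ac (background 49.1%). NONO and VCP had H3K27ac alone and HPRT1 had no kept mark. No housekeeping gene of the list had H3K27me3 at an end (background 12.8%).

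H3K27ac and H3K27me3 were kept together at 232 gene ends of 229 protein-coding genes (1.14% of 20037). H3K4me2 was present as well at 229 of the 232 ends, and 148 were transcription starts, 11 far ends and 73 ends of unknown strand. The number depends on how the peaks are selected: it was 80 with peaks of −log10 p of at least 5, 106 with −log10 q of at least 2, 89 with an overlap of 200 bp or more per mark, 67 in a window of 500 bp and 560 in a window of 2.5 kb. It was 390 without H3K27ac replicate 1 and 576 without H3K27me3 replicate 1, where the rule that both libraries agree is relaxed and the number cannot fall. In 5 stricter settings (these first 4 and lists of equal length), 14 of the 229 genes kept both marks in all 5 and 64 in none.

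At these ends the marks lay side by side. They shared at least 1 bp at 15 ends and 200 bp or more at 3; at the other 217 the nearest kept intervals were apart, and over all 232 ends the median gap was 636 bp (interquartile range 423 to 930 bp, longest 1834 bp). H3K4me2 covered a median of 742 bp of the window, H3K27ac 299 bp and H3K27me3 255 bp. H3K27ac lay nearer the start, its center at a median of 370 bp from it against 739 bp for H3K27me3. H3K27ac lay downstream of H3K27me3 at 82 of 148 starts and upstream at 66.

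**Figure D4:**
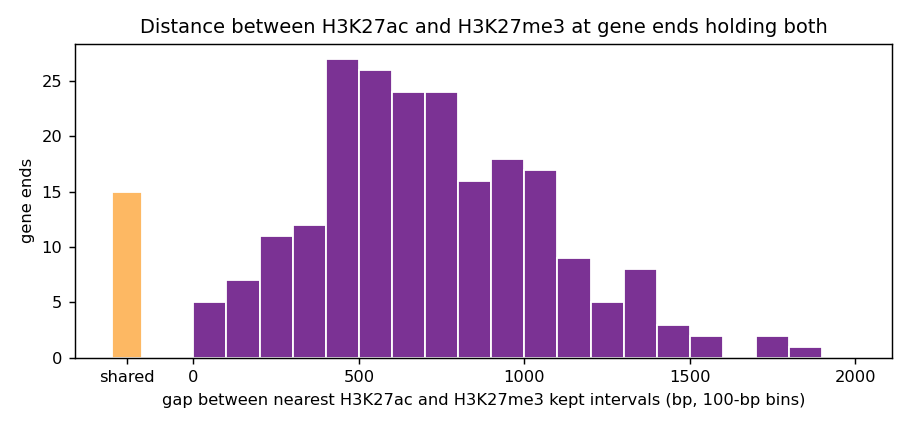
Number of gene ends (y axis) by the gap in bp between the nearest kept H3K27ac and H3K27me3 intervals (x axis, 100-bp bins; the bar at the left counts ends where the marks share bp). Sharing was found at 15 of 232 ends, and 154 had a gap of over 500 bp.

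Around the 148 starts with all 3 marks, kept H3K27ac was most frequent 200 bp downstream of the start (36.5% of starts covered), as at the 8032 starts with H3K4me2 and H3K27ac, where it reached 76.7%. H3K27me3 was most frequent 950 bp upstream (34.5%) and covered 2.03% at the start itself. At the 1318 bivalent starts H3K27me3 reached 57.0% at 900 bp downstream and H3K4me2 53.1% at 350 bp downstream. At their best positions, H3K27ac and H3K27me3 were thus each less frequent at starts with all 3 marks than at starts with 1 of them, and H3K4me2 reached 57.4% against 60.5% and 53.1%. The window of 1 kb decides which starts enter, so the fall of H3K27me3 beyond it at these starts is in part set by the rule.

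**Figure D5:**
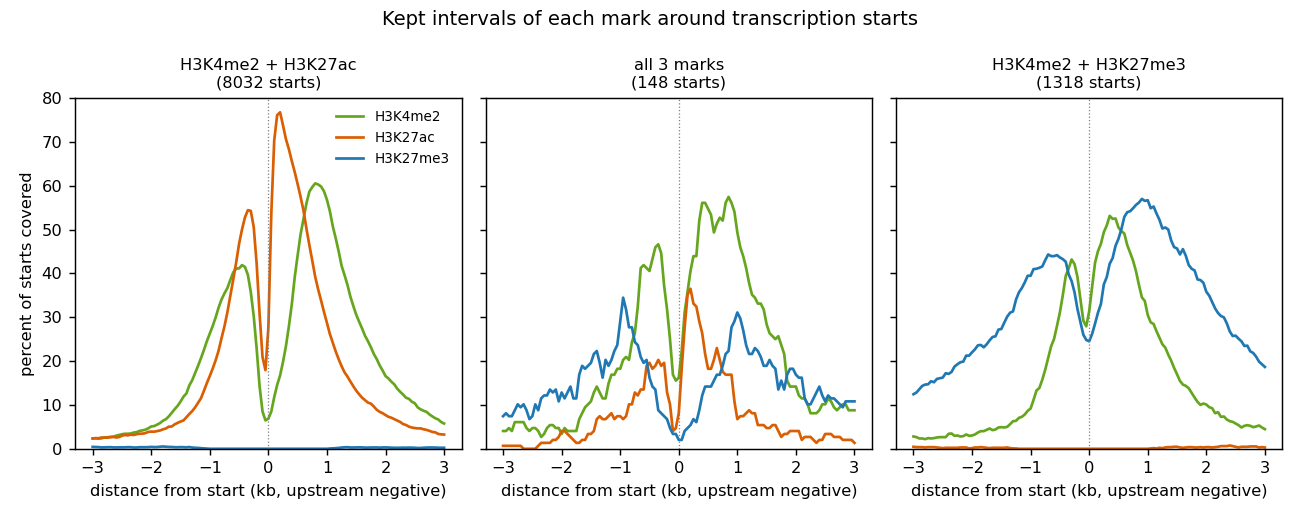
Percent of starts covered by kept intervals of each mark (y axis) against the distance from the start in kb (x axis, upstream negative), for 3 classes of starts. H3K27ac peaks 200 bp downstream in the first and second panels (76.7% and 36.5%), and H3K27me3 flanks the start in the second panel with 2.03% at the start.

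Both marks were weaker where they met. The widest kept H3K27ac interval touching the window had a median of 244 bp at ends with all 3 marks and 599 bp at ends with H3K4me2 and H3K27ac; its median fold was 4.29 and 4.69 in the 2 libraries, against 6.98 and 8.17. For H3K27me3 the median width was 343 bp against 841 bp at bivalent ends, and the median fold 3.70 and 4.89 against 5.04 and 6.76. H3K4me2 did not follow this pattern, with median folds of 6.24 and 6.67 at ends with all 3 marks and 6.05 and 6.41 at ends with H3K4me2 and H3K27ac. Low H3K27ac was not particular to ends with all 3 marks. At ends with H3K27ac alone its median width was 335 bp and its median fold 4.49 and 5.07. At ends with H3K27me3 alone the median H3K27me3 width was 780 bp and the median fold 4.91 and 6.48. Another gene's end lay in the window at 34.5% of the ends with all 3 marks, 49.0% of those with H3K4me2 and H3K27ac and 27.3% of bivalent ends.

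Of the 433 listed genes found in the annotation, 19 had H3K27ac and H3K27me3 at the same end. FOXA2, the pioneer factor of endoderm (chr20:22580998-22585490), had H3K27ac at 16.0 and 17.3-fold and H3K27me3 at 4.11 and 5.83-fold at its higher-coordinate end, 284 bp apart, with no kept H3K4me2; at its other end it had H3K4me2 and H3K27ac without H3K27me3. It kept both H3K27 marks in all 5 stricter settings. CEBPA, a liver and blood factor, had 66 bp of H3K27me3 at 1348 bp from its H3K27ac, and TBX3 had the marks 1561 bp apart.

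Polycomb genes were a group with several such ends: 5 of 35 had all 3 marks (background 1.13%), among them BMI1, CBX7, CBX8 and EZH1. CBX7 and CBX8 encode subunits of PRC1 that bind H3K27me3, BMI1 another PRC1 subunit and EZH1 a methyltransferase of PRC2. CBX8 (chr17:79792132-79797077) had H3K27ac at 6.44 and 6.85-fold and H3K27me3 at 8.25 and 12.5-fold, 213 bp apart, and kept both marks in all 5 stricter settings. CBX7 had them 110 bp apart and EZH1 663 bp apart. The core PRC2 genes EZH2 and SUZ12 had H3K27ac alone (5.37 and 6.05-fold, and 7.98 and 8.66-fold; at EZH2 both H3K4me2 libraries had a peak but shared no bp), EED had H3K4me2 with H3K27ac, and PHC2 was the 1 bivalent member.

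Imprinted genes, which are marked differently on the maternal and paternal copies, had 4 of 39 with all 3 marks (background 1.13%): CDKN1C, DIO3, L3MBTL1 and ZDBF2. At CDKN1C, a cell cycle inhibitor (chr11:2883218-2885775), the marks shared 122 bp, with H3K27ac at 4.91 and 3.97-fold and H3K27me3 at 3.46 and 5.18-fold. At the far end of DIO3, which inactivates thyroid hormone (chr14:101561495-101563452), they shared 349 bp. ZDBF2 shared 7 bp, and the marks of L3MBTL1 were 446 bp apart. Shared bp were found at 3 of these 4 genes and at 15 of 232 ends in all; the peak lists do not tell the copies apart.

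Other ends with shared bp belonged to RTN4RL1, COL2A1, COL4A3 with COL4A4, ACTA1, GCH1, PHLDA3, PSTPIP2, ST6GALNAC2, TMEM200B and COXFA4L2. The longest shared interval, 564 bp, was at RTN4RL1, a Nogo receptor relative (chr17:2024416-2024979). COL4A3 and COL4A4, collagen chains transcribed apart from a common promoter region, shared 170 bp between the marks (chr2:227163793-227163962), with H3K27ac at 4.60 and 5.77-fold and H3K27me3 at 4.05 and 3.89-fold. COL2A1, the cartilage collagen, had 1473 bp of H3K27me3 and 337 bp of H3K27ac in the window. These genes were named because the marks overlapped there.

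Other listed genes with both marks were BMP7, ALX1, FOXP2, IRX2, SFTPC and PRDM14. BMP7, a BMP ligand (chr20:57168753-57266641), kept both in all 5 stricter settings, with H3K27ac at 6.13 and 7.21-fold and H3K27me3 at 5.25 and 3.80-fold. PRDM14, a pluripotency regulator, had 37 bp of H3K27ac (3.36 and 3.20-fold) beside 864 bp of H3K27me3. FOXP2 was the reverse, with 713 bp of H3K27ac and 24 bp of H3K27me3. Another gene's end lay in the window of BMP7, IRX2 and SFTPC.

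Outside the lists, the ends with all 3 marks that ranked highest by their weakest library were those of CFAP65, KAZALD1, LOC124903317, ARPC5 and RGL1. At the far end of CFAP65 H3K27ac was 14.7 and 22.4-fold and H3K27me3 5.52 and 7.96-fold, 372 bp apart. At KAZALD1 H3K27ac was 13.1-fold in replicate 1 and higher in replicate 2, and H3K27me3 7.79 and 10.2-fold. The strongest bivalent genes outside the lists were ATP6V1C2, EBF2, DLX2, EGR3, ZIC1, TFAP2C, KCNJ6, PRDM6, GAD2 and POU4F2; DLX2, ZIC1 and POU4F2 are factors of neural development. The strongest in the acetylated pair were EWSR1 with RHBDD3, SMIM7 with TMEM38A, CTDNEP1 with ELP5, TMEM41B, WARS1 with WDR25 and DMTN, of which the 4 pairs have starts within 1 kb of each other. CBX3 with HNRNPA2B1 led the ends with H3K27ac alone, GSX1 and URAD those with H3K27me3 alone, and UNC5C and HES7 those with H3K4me2 alone.

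The classes with a missing mark depend on the demand that both libraries of a mark share a bp. Whether a mark was absent or missed at these ends was not tested. HNRNPA2B1 and CBX3 had an H3K4me2 peak of 4.76-fold in replicate 2 alone, so they counted as H3K27ac alone. At CHD2, with H3K27ac of 19.8 and 17.7-fold, both H3K4me2 libraries had a peak (4.08 and 4.91-fold) but no shared bp in the window. The number of ends with H3K27ac alone (825) was 1755 without H3K27ac replicate 1, 1346 without H3K27ac replicate 2, 448 without H3K4me2 replicate 1 and 527 without H3K4me2 replicate 2. Ends with H3K27me3 alone (721) numbered 1544 without H3K27me3 replicate 1 and 461 without H3K4me2 replicate 1, and ends with H3K4me2 alone (1940) numbered 1292 without H3K27ac replicate 1. By contrast, ends with H3K4me2 and H3K27ac (10584) stayed between 10245 and 11232 and bivalent ends (2051) between 1893 and 2539 when any 1 of the 6 libraries was left out.

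MicroRNA genes, short regulatory RNAs that bind messages through their seed (bases 2 to 8), were classed in the same way. Of 1913, 179 had H3K4me2 with H3K27ac, 48 H3K27ac alone, 39 the bivalent pair, 23 H3K27me3 alone and 4 all 3 marks. Mature sequences from RefSeq (GRCh38.p14) follow for genes chosen after their classes were seen, 5′ to 3′ with the seed in capitals.
miR-302a-3p: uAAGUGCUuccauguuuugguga
miR-302b-3p: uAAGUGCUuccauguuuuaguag
miR-302c-3p: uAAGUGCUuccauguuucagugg
miR-302d-3p: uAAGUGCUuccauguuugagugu
miR-367-3p: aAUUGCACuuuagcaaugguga
miR-375-3p: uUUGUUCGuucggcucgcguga
miR-9-5p: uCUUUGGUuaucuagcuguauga
miR-137-3p: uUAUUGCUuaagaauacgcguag
miR-10a-5p: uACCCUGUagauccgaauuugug
miR-196a-5p: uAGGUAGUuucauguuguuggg
miR-132-3p: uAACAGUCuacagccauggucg
miR-212-3p: uAACAGUCuccagucacggcc
The miR-302 members share the seed AAGUGCU, and miR-132 and miR-212 share AACAGUC. The miR-302 and miR-367 genes, a stem cell cluster on chromosome 4, lie within 1 kb of each other. All had the same H3K27ac values, 18.6 and 21.8-fold, so these are not separate observations. MIR302B and MIR302C also had kept H3K4me2 (3.65 and 4.17-fold), and MIR302A, MIR302D and MIR367 counted as H3K27ac alone. MIR375, known from pancreas and gut, had H3K27ac at 14.7 and 22.4-fold and H3K4me2 at 7.15 and 9.18-fold; the far end of CFAP65, nearby, had the same H3K27ac values.

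Of the 1913 microRNA genes, 2.04% were bivalent and 1.20% had H3K27me3 alone. The 3 genes of miR-9, MIR9-1, MIR9-2 and MIR9-3, were all bivalent, with H3K27me3 at 5.55 and 7.63-fold, 7.63 and 8.88-fold, and 4.16 and 9.62-fold. MIR137 was bivalent too (7.05 and 9.50-fold), as were the 3 genes of miR-124, known from neurons, and MIR219A2. Other microRNA genes known from the brain, MIR153-1 and MIR219A1, had H3K4me2 with H3K27ac instead (H3K27ac 7.05 and 7.57-fold, and 5.51 and 8.74-fold). MIR10A, in the HOXB cluster, was bivalent (3.70 and 10.3-fold), and MIR196A1, MIR196A2 and MIR10B, in HOX clusters, had H3K27me3 alone. MIR132 and MIR212, neighbors on chromosome 17, had all 3 marks, with H3K27ac at 8.28 and 7.93-fold at both genes and H3K27me3 at 2.66 and 5.55-fold and at 6.79 and 12.5-fold.

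Away from gene ends, 39116 distal regions (kept H3K4me2 or H3K27ac at least 150 bp wide and more than 2.5 kb from any annotated gene end) covered 17.9 Mb. Distal does not mean between genes, as 53.7% of these regions lay inside a protein-coding gene. H3K27ac alone was at 24197 (61.9%), H3K4me2 with H3K27ac, the pair of active enhancers, at 8686 (22.2%), H3K4me2 alone at 5076 (13.0%), H3K4me2 with H3K27me3, the poised pair, at 1143 (2.92%) and all 3 at 14 (0.0358%). Regions with both active marks were wider, with a median of 543 bp against 283 bp for H3K27ac alone, and their median H3K27ac was 5.33 and 5.67-fold against 4.07 and 4.30-fold. H3K27ac alone numbered 51031 without H3K27ac replicate 1 and 56600 without replicate 2; H3K4me2 alone numbered 18715 and 31815 without H3K4me2 replicate 1 and 2. H3K4me2 with H3K27ac numbered 13648 without H3K4me2 replicate 1 and 13073 without replicate 2, so these counts rest on the demand that both libraries agree.

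Measured from the midpoint of a region, the nearest protein-coding gene end was a median of 9.60 kb from the poised distal regions. The median was 10.6 kb for the 14 with all 3 marks and 21.0 kb for H3K4me2 alone. It was 32.2 kb for H3K4me2 with H3K27ac and 51.9 kb for H3K27ac alone. The nearest gene was itself bivalent for 42.3% of the poised regions, 28.6% of those with all 3 marks, 15.0% of those with H3K4me2 alone, 10.4% of those with H3K27ac alone, 9.39% of those with H3K4me2 and H3K27ac and 11.7% of all distal regions. Neural regulators were nearest to 62 of 1143 (5.42%), against 0.404% of all regions. Definitive endoderm genes were nearest to 0.875% of poised regions, 0.921% of H3K4me2 with H3K27ac regions and 0.800% of all. NR2F2, an orphan nuclear receptor, had the most poised regions (14), followed by PAX2 (13) and EBF3, NFIA, TBX3 and TBX5 (7 each).

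Among endoderm genes, PRDM1, a zinc-finger repressor, was nearest to 45 distal regions, 16 of them with H3K4me2 and H3K27ac, and GATA6 to 42, of which 30 had H3K27ac alone. LHX1 had 28, FOXA2 19 and GATA4 24. GATA4 differed from these in its mix: 11 regions with H3K4me2 and H3K27ac, 6 with H3K27ac alone, 5 poised, 1 with H3K4me2 alone and 1 with all 3 marks. No poised region was nearest to PRDM1, GATA6, LHX1 or FOXA2. SOX17 had 5 regions and CER1 2, although both had strong H3K27ac at the gene end. Assignment to the nearest gene does not show which gene a region acts on.

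The 14 distal regions with all 3 marks were led by a region nearest to GATA4. The GATA4 region, inside the gene at chr8:11679440-11681223, was 1784 bp wide, with H3K27ac at 4.55 and 4.81-fold, H3K27me3 at 3.50 and 8.88-fold and H3K4me2 at 4.38 and 5.58-fold. Others were nearest to SHH, SIX3, HMX1, ATF3 and CCND1. The region nearest to PROS1 had folds of only 1.26 to 2.64 in the 6 libraries. The count was 42 without H3K27ac replicate 1, 28 without H3K27ac replicate 2 and 45 without H3K27me3 replicate 1, and 3 with −log10 p of at least 5.

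The strongest distal regions outside that class had named neighbors as well. SSBP3, VRTN, MRPL24, SPTAN1 and FADS1 were nearest to the leading regions with H3K4me2 and H3K27ac; the one nearest to VRTN, a gene of the pluripotency list, was 7173 bp wide (chr14:74346167-74353339), with H3K27ac at 18.2 and 24.8-fold. Leading poised regions lay near ULBP1, PAX5, DSCAML1, NR2E1, NKX2-6, PAX9, BMP7 and PAX6. The PAX9 region (chr14:36662259-36664319) had its midpoint 5720 bp from the nearest end of the gene. It had H3K4me2 at 10.2 and 9.26-fold and H3K27me3 at 6.48 and 12.1-fold. The PAX6 region (chr11:31809758-31811681) had 9.32 and 7.88-fold and 5.71 and 7.16-fold. PAX6 and PAX9 were thus bivalent at the start and at a region inside the gene.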

How the data were processed

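Peak lists of 6 ChIP-seq libraries of definitive endoderm from H1 cells were used as the authors deposited them, on hg38 per the submitters' processing notes. Per the file names, peaks were called for each library against the input of the stage, without duplicates, at a p-value of 0.01 with a cap on the number of peaks; no source used here names the aligner or the peak caller. The file name of H3K27me3 replicate 1 names a supplier, and whether its antibody differed was not tested. The deposited columns hold fold enrichment (a ratio to input), −log10 p, −log10 q and a score; the score was not used. Narrow peaks split broad H3K27me3 domains, so widths of that mark are those of pieces. Read depth is unknown.

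Peaks on chromosomes 1 to 22, X and Y were merged per library, and bp in both libraries of a mark were kept. Gene ends came from RefSeq (GRCh38.p14; 20037 protein-coding genes, 15842 with a strand from the promoter table, whose start equals the annotated end for 83.8%). A gene took the class of its end with more marks. Distal regions were at least 150 bp wide and over 2.5 kb from any annotated gene end. Named genes were every listed gene with both H3K27 marks, all genes of the endoderm, streak and pluripotency lists, and up to 10 per class by the lowest percentile rank of −log10 p over libraries or by interval width; others were named as examples of their list. Some genes that the rule names are not reported here, though list counts include them. Members and lists were chosen with earlier results of these data known. Libraries were compared by an exact permutation test; no other test fits 2 lists per mark. The interval code was tested on simulated data (Python 3.11.15, NumPy 2.4.6, pandas 2.3.3). Alternatives were stricter peaks, other windows and distances, and each library left out.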

Additional observations from a re-analysis of the deposited data

How the results depend on the processing

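Leaving out each of the 6 libraries in turn gave 10245 to 11232 gene ends with H3K4me2 and H3K27ac and 1893 to 2539 bivalent ends. It gave 229 to 576 genes with both H3K27 marks and 19 to 28 such listed genes. Distal regions with H3K4me2 and H3K27ac numbered 8655 to 13648 and poised ones 1116 to 1562. H3K27ac and H3K27me3 shared 5196 to 30685 bp. The genes with both H3K27 marks and the shared bp cannot fall when a library is left out. With a −log10 p of at least 5, genes with both marks fell to 80, listed ones to 10, distal regions with H3K4me2 and H3K27ac to 3153, poised ones to 698 and shared length to 766 bp, and the bivalent median CpG ratio was 0.821. With a −log10 q of at least 2 these were 106 genes, 4356 distal regions and 1123 bp. With every list at the length of the shortest (28139 peaks) they were 57 genes, 6 listed genes, 6537 ends with H3K4me2 and H3K27ac, 1195 distal regions, 555 poised ones and 187 bp. A window of 500 bp gave 67 genes and 8 listed, one of 2.5 kb 560 and 34, and an overlap of 200 bp 89 and 10. Transcription starts alone gave 148 genes, 9 listed and 1318 bivalent ends. This setting covers only the 15842 genes of known strand, so part of the fall is from genes left out. All annotated genes gave 3117 bivalent ends. At the start of the promoter table, an alternative chosen after seeing the data, 1350 starts were bivalent and 11 listed genes had both marks. Poised distal regions numbered 1927 beyond 1 kb, 693 beyond 5 kb and 740 at a width of 300 bp or more.

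The replicate block took replicate 1, or replicate 2, of the 3 marks alone. It gave 431 and 872 genes with both marks, 15592 and 16382 distal regions with H3K4me2 and H3K27ac, 29753 and 99941 shared bp, and bivalent median CpG ratios of 0.797 and 0.790; replicate 2 alone gave 38 listed genes with both marks and 2019 poised regions. The labels do not say that equal replicate numbers mark a shared culture. The permutation p was 0.0667 under its 3 alternatives as well, which is the smallest that 6 libraries allow. Counts of ends with H3K4me2 and H3K27ac stayed within 1.5 times under 17 of 18 alternatives, those of bivalent ends under 15 of 18, and those of genes with both H3K27 marks under 7 of 18.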
